A study of Danio rerio with 32 samples.

Results

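Transcripts of 9 circadian clock genes were followed in 2 tissues of adult female AB zebrafish, liver and muscle: per1a, per1b, per2, per3, nr1d1, nr1d2a, dbpa, tefa and ciarta. They were chosen by symbol, and all 9 were present among the 31658 genes of the count table. The fish were wild type or knockouts of gys2, which encodes the glycogen synthase of liver. Tissue and genotype gave 4 groups of 8 libraries (wild-type liver, knockout liver, wild-type muscle and knockout muscle), 32 libraries in all. All groups were kept in 14 h of light and 10 h of dark at 28.5 °C. The hour at which fish were taken, the dates and the lesion in gys2 were not stated in the sources used here. Replicates in a group are numbered 1 to 8, and the labels do not say whether a liver and a muscle of the same number came from the same fish.

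In the vertebrate clock, the activators CLOCK and BMAL (encoded by the arntl genes) switch on genes whose products later shut them down, so that the transcripts rise and fall over each day. The period proteins are such repressors, and in zebrafish per2 is also induced directly by light. The Rev-Erb receptors nr1d1 and nr1d2a repress the activators in a second loop, and tefa and dbpa are PAR bZIP factors that act at D-box elements. Peripheral tissues of zebrafish hold clocks that light can set without the brain, so the level of such a gene in a tissue depends on the hour of sampling.

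Knockout and wild type were not separated by any clock gene at the thresholds used here, in either tissue. Between liver and muscle, 1 of 7 tested genes was called in knockout fish, ciarta, where 43.4% of all genes were called, and 0 of 7 in wild-type fish; the difference of the ciarta change between genotypes was itself not called. Between fish of a single group the genes varied to unlike degrees. With both genotypes fitted together, the spread of tefa in muscle was at the 24.5th percentile of genes of like abundance. Among the 7 tested members, nr1d2a in muscle stood highest in relation to genes of like abundance, and its level there ran from 42.3 to 216 CPM in wild type and from 41.4 to 338 CPM in knockout. CPM here are counts divided by library size, with that size scaled by TMM within a tissue, a scaling that sets the bulk of genes equal between libraries. Where liver and muscle are set side by side, the scaling was made over all 32 libraries, and this is said in the sentence.

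Libraries held 1514099 to 15351773 counts. Wild-type livers (1514099 to 2366219) were all shallower than knockout livers (2562717 to 15351773), while muscle libraries held 1664493 to 7264469 counts in wild type and 2373329 to 3620243 in knockout. The transcript of the targeted gene, gys2, averaged 10.4 ± 6.30 CPM (SD, n = 8) in livers of wild-type fish and 1.08 ± 0.755 CPM in those of knockouts. Hepatocyte markers summed to at least 23723 CPM of library totals in each liver library and skeletal muscle markers to at least 52684 CPM in each muscle library, so the tissue labels and the markers go together. Hepatocyte markers summed to 490 to 822 CPM in muscle, except in wild-type muscle 6 (6470 CPM) and knockout muscle 6 (3229 CPM). Comparisons of groups that rest on muscle are also given without those 2 libraries where they move. Spreads, relations between genes and nearest genes in muscle are not given without them. In bulk tissue, fewer cells that express a gene and less RNA per cell cannot be told apart.

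The genes were counted at very different depths, which sets how much each can show. Per3 and nr1d2a had at least 44 and 37 counts in every library and tefa at least 15. Per1a, per1b, per2 and ciarta were thin, with lowest counts of 3, 2, 6 and 4. Nr1d1 had 0 to 62 counts and dbpa 0 to 13, with dbpa at 0 in 4 wild-type livers, 4 knockout livers, 5 wild-type muscles and 4 knockout muscles. Those last 2 genes did not pass the filter on low counts within either tissue and were tested on their own.

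**Figure D1:**
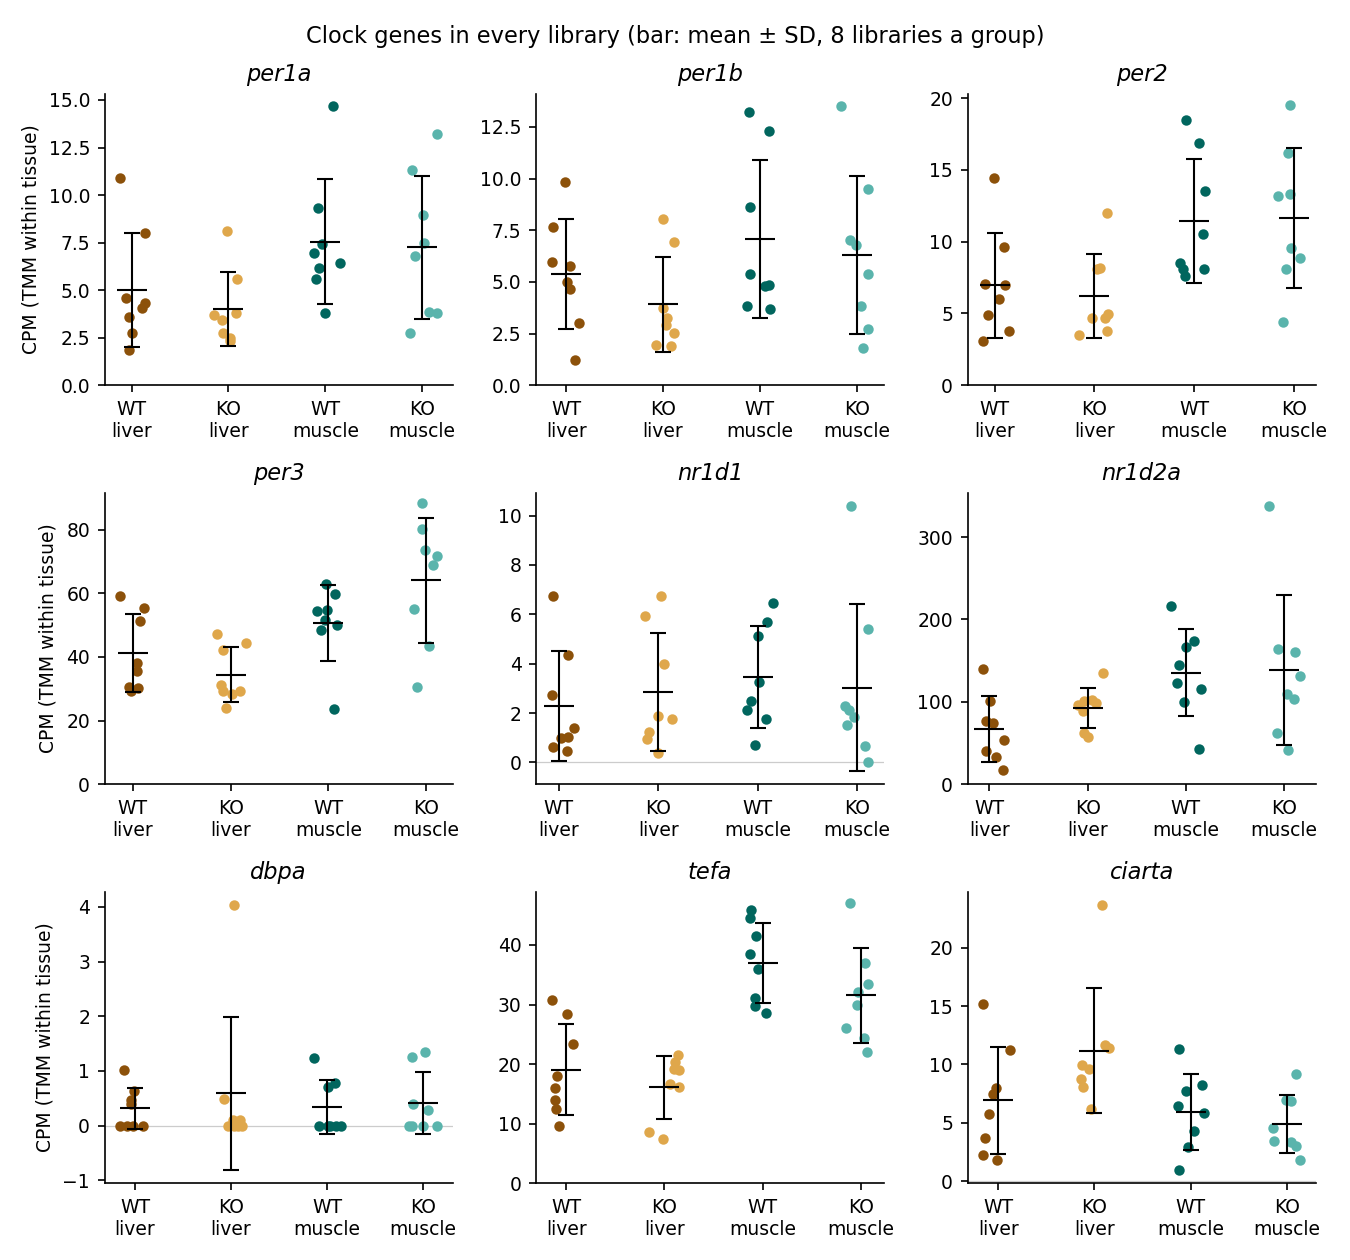
Level of each of the 9 clock genes in each library, in CPM scaled within tissue, with liver in brown and muscle in green. Each point is a library and the bars give the mean ± SD of 8 libraries; in every panel the wild-type and knockout points of a tissue overlap, and the knockout muscle library at 338 CPM stands above the others for nr1d2a.

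The first question is whether loss of gys2 was accompanied by a shift in the clock genes, and whether the genotypes were matched in clock state when they were taken. In liver, 0 of the 7 tested members passed the test of edgeR, against 0.0742% of all 9438 tested genes (7 genes). None of the 7 had an unadjusted p under 0.05, where 2111 of the 9438 genes did. In muscle, 0 of 7 passed, against 0% of 12415 tested genes. Again none had an unadjusted p under 0.05, where 588 of the 12415 genes did. Whether 0 of 7 differs from those shares was not tested. DESeq2 and limma-voom also called 0 of them in either tissue. Of all genes they called 332 and 224 of 9438 in liver, and 1 and 0 of 12415 in muscle. The wild-type and knockout values of every member overlapped in both tissues. The share of all genes that overlap in this way was not counted, so the overlap is not a trait shown to be particular to clock genes.

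Among the period repressors, per3 was the best counted. Its level in wild-type liver was 29.3 CPM in the lowest library, 36.8 at the median and 59.2 in the highest. In knockout liver the same 3 values were 23.9, 30.2 and 47.3 CPM. The groups overlapped, with 3 knockout livers under the lowest wild-type liver, and the log2 change was -0.27 ± 0.20 (SE, edgeR adjusted p = 0.412). In muscle, per3 ran from 23.7 through a median of 53.0 to 62.8 CPM in wild type and from 30.5 through 70.2 to 88.4 CPM in knockout. Here 5 of 8 knockout libraries lay above the highest wild-type library, and the log2 change of 0.33 ± 0.20 did not pass (edgeR adjusted p = 0.951).

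The other period genes differed between the livers by amounts within the spread. Per1b was at 5.39 ± 2.65 CPM (SD, n = 8) in wild-type liver and 3.91 ± 2.31 in knockout, a log2 change of -0.50 ± 0.37. Per1a was at 5.00 ± 2.96 and 4.02 ± 1.95 CPM, and per2 at 6.97 ± 3.65 and 6.22 ± 2.93 CPM, where the sign of the log2 change turned without wild-type liver 8. In muscle these 3 genes had log2 changes of -0.10, -0.04 and 0.02. Their signs in muscle turned with the scaling or with single libraries, so no direction is given for them.

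Of the Rev-Erb repressors, nr1d2a was at 16.7 CPM in the lowest wild-type liver, 64.0 at the median and 140 in the highest. Knockout livers ran from 57.4 through 97.8 to 135 CPM. The knockout values lay inside the wild-type range, 6 of 8 of them above the wild-type median, and the log2 change was 0.48 ± 0.31 (edgeR adjusted p = 0.341). In muscle the means were 135 ± 52.8 CPM in wild type and 139 ± 91.3 in knockout. Nr1d1, its paralogue, was at 2.29 ± 2.22 and 2.86 ± 2.40 CPM in wild-type and knockout liver and at 3.45 ± 2.07 and 3.03 ± 3.37 CPM in muscle. Its mean log2(CPM + 0.5) differed by 0.28 in liver and -0.49 in muscle, with two-sided exact permutation p of 0.594 and 0.408 (n = 8 against 8, adjusted over 8 tests 0.961 for each).

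Tefa, the better counted PAR bZIP activator, was at 19.1 ± 7.66 CPM in wild-type liver and 16.1 ± 5.29 in knockout liver. It was at 36.9 ± 6.71 CPM in wild-type muscle and 31.5 ± 7.97 in knockout muscle, with 3 knockout libraries under the lowest wild-type library and 1 above the highest. The log2 changes were -0.25 ± 0.26 and -0.23 ± 0.17, with edgeR adjusted p of 0.567 and 0.960. Dbpa stood near its detection limit, and its genotype differences on the log2 scale were 0.02 in liver and 0.10 in muscle (two-sided exact permutation p = 0.961 and 0.785, n = 8 against 8).

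Ciarta, the counterpart of the mouse repressor Ciart (Chrono), had the largest change between genotypes of the 7 tested members in liver. Wild-type livers ran from 1.84 through a median of 6.61 to 15.2 CPM and knockout livers from 6.21 through 9.78 to 23.7 CPM. The wild-type median was exceeded by 7 of 8 knockouts, and the log2 change of 0.68 ± 0.35 did not pass (unadjusted p = 0.0631, edgeR adjusted p = 0.246). The 95% interval of that change ran from -0.0045 to 1.37. In muscle the change was -0.20 ± 0.38, from 5.96 ± 3.26 CPM in wild type to 4.90 ± 2.51 in knockout. The liver effect of the knockout exceeded its muscle effect by 1.06 ± 0.53 (edgeR adjusted p = 0.277), and in that test 0 of 8 members passed, against 0.211% of 13725 genes.

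The 6 lists of other clock genes (activators, cryptochromes, Rev-Erb and ROR receptors, PAR bZIP and nfil3 factors, other repressors, and clock protein turnover) held 39 genes. Between genotypes, 0 of the 16 tested in liver and 0 of the 26 tested in muscle passed. At an unadjusted p under 0.05 there were 2 of 16 in liver, where 2111 of all 9438 tested genes were, so the share in liver lay under that of all genes. In muscle there were 0 of 26, where 588 of all 12415 tested genes were. Those in liver were clockb, a copy of the activator gene, at 24.2 ± 5.83 CPM in wild type and 17.3 ± 5.40 in knockout (edgeR adjusted p = 0.181), and rorcb, a receptor that activates at the sites where Rev-Erbs repress, at 28.2 ± 6.31 and 20.3 ± 7.14 CPM (edgeR adjusted p = 0.196). The median log2 change of the 7 members was -0.25 in liver, beside -0.025 over all tested genes, and -0.04 in muscle beside 0.0041.

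The second question is whether the clock genes differed between liver and muscle. In knockout fish, ciarta was at 14.1 ± 6.44 CPM in liver and 4.04 ± 2.06 CPM in muscle (SD, n = 8, scaled over 32 libraries). Livers ran from 7.22 to 28.5 CPM and muscles from 1.52 to 7.58 CPM, so that 7 of 8 livers lay above the highest muscle and the groups overlapped by 1 library. The log2 difference was 1.71 ± 0.31 (edgeR adjusted p = 4.78e-05). Of all 11685 genes tested, 43.4% were called in this comparison, and 21.2% were called higher in liver, so 1 of 7 members lies at or below the background share. Ciarta passed in all 26 alternatives in which it was tested, with log2 differences of 0.81 to 2.03. The 2.03 was the value without knockout muscle 6, a fit that these alternatives count again as the setting without both muscle libraries 6.

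In wild-type fish, ciarta was at 7.71 ± 5.06 CPM in liver and 4.92 ± 2.70 CPM in muscle on the same scale, a log2 difference of 0.72 ± 0.41 (edgeR adjusted p = 0.206). Over the 4 groups the order of ciarta was therefore knockout liver, wild-type liver, wild-type muscle and knockout muscle, and none of the 3 neighbouring pairs in that order passed the test. In wild type, 0 of 7 members passed against 33.9% of 10648 tested genes. Exocrine pancreas markers, which can come with fish liver, were all 6 higher in liver than in muscle among knockout fish. Their sums were 30.9 to 1519 CPM of library totals in liver and 10.7 to 48.8 CPM in muscle. Over the 16 liver libraries ciarta and that marker sum had r = -0.35 and rho = -0.43 after removal of genotype means (permutation p = 0.240 and 0.128 within genotype, adjusted over 180 relations 0.828 for r). Without the 2 libraries farthest in the marker sum r was -0.08.

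Tefa was lower in mean in liver than in muscle in both genotypes, at 21.6 ± 9.32 against 30.5 ± 5.54 CPM in wild type and 20.3 ± 6.63 against 26.01 ± 6.51 CPM in knockout (scaled over 32 libraries). Of the wild-type livers, 5 lay under the lowest wild-type muscle. The log2 differences of -0.49 ± 0.22 and -0.41 ± 0.22 did not pass (edgeR adjusted p = 0.0952 and 0.130), and the former passed without wild-type liver 5 or wild-type liver 8. Per3 was at 46.0 ± 11.55 CPM in wild-type liver and 41.8 ± 9.71 in wild-type muscle, and at 43.0 ± 8.75 and 52.9 ± 16.2 CPM in knockout. The per3 differences were 0.14 ± 0.19 and -0.37 ± 0.21 on the log2 scale. By arithmetic means, nr1d2a was at 118 ± 34.4 CPM in knockout liver, 114 ± 74.6 in knockout muscle, 112 ± 43.7 in wild-type muscle and 76.9 ± 47.7 in wild-type liver. No neighbouring pair in that order passed the test, and the fitted log2 difference of liver against muscle in knockout was -0.015, so those 2 groups have no order. Neither nr1d1 nor dbpa differed between tissues at a two-sided exact permutation p under 0.05, in either genotype (n = 8 against 8, lowest p = 0.358).

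**Figure D2:**
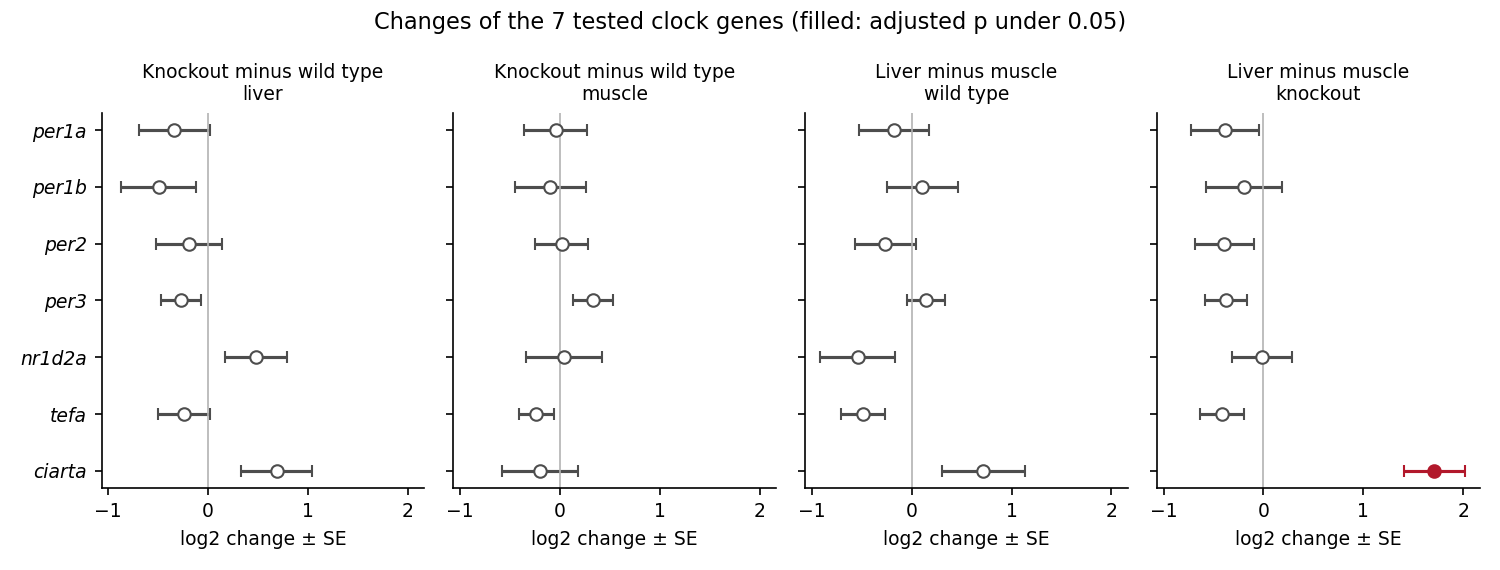
The log2 change ± SE of the 7 tested clock genes in each comparison, from edgeR, with 8 libraries a group. Open points did not pass an adjusted p of 0.05; the filled point is ciarta in knockout fish, 1.71 higher in liver than in muscle.

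Other clock genes were called between tissues about as often as genes at large, or less. Of the 6 other clock lists, 2 of 21 tested genes were higher and 5 lower in liver than in muscle in wild type, where 33.9% of all genes were called. In knockout 2 of 23 were higher and 6 lower, where 43.4% of all genes were called. Nfil3-6 is of the family that opposes the PAR bZIP factors at D-boxes. In wild type it was at 35.1 ± 29.5 CPM in liver against 13.2 ± 4.23 in muscle (scaled over 32 libraries, log2 1.40, edgeR adjusted p = 0.0105). In knockout it was at 79.8 ± 54.6 against 14.5 ± 6.48 CPM on the same scale (log2 2.38, edgeR adjusted p = 9.83e-05). Bhlhe41, a repressor of the clock activators known from mammals as DEC2, was lower in liver by 1.78 in wild type and 2.60 in knockout on the log2 scale (edgeR adjusted p = 0.00333 and 0.00623). The cryptochromes cry1a and cry4 were lower in liver in both genotypes, by log2 changes of -1.33 and -1.87 in wild type. Arntl1a, an activator gene, and csnk1da, of the turnover list, were called lower in liver in wild type, and rorcb was called higher. In knockout, clockb, csnk1da and csnk1e were called lower in liver. Cry3a was called in knockout only, at 108 ± 33.4 CPM in liver against 54.8 ± 9.96 in muscle (scaled over 32 libraries). The genotypes were not shown to differ, since 0 of the 27 other clock genes passed the test of that difference.

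With no hour of sampling in the labels, the third question is how the clock genes varied between fish of a single group. The spread was measured as the SD of log2(CPM + 0.5) over 8 libraries and set beside the SD that counting alone would give. For nr1d2a the spread was 0.97, 0.40, 0.72 and 0.92 in wild-type liver, knockout liver, wild-type muscle and knockout muscle, against 0.14, 0.08, 0.08 and 0.09 from counting. Its highest library stood 8.38, 2.36, 5.12 and 8.17 times above its lowest in those groups. Tefa in muscle was the steadiest member, with SDs of 0.26 in wild type and 0.35 in knockout against 0.14 and 0.15 from counting. For dbpa the counting SD was larger than the measured SD in all 4 groups. Its counts of 0 raise the counting SD, and the added 0.5 CPM damps the measured SD. The comparison therefore cannot tell whether dbpa varied between fish.

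The biological coefficient of variation, an estimate of the spread left after counting error, was fitted over both genotypes of a tissue. The fit draws the value of each gene towards that of genes of like abundance. It put nr1d2a in muscle at 0.514. That was at the 96.8th percentile of 310 genes of like abundance, whose median was 0.275. In liver nr1d2a was at 0.447, the 77.2nd percentile of 452 genes, where its SD was 0.97 in wild type and 0.40 in knockout. Ciarta was at the 87.3rd percentile in liver, above nr1d2a, and at the 84.3rd in muscle. Per1b was at the 71.7th in liver and the 85.3rd in muscle. Tefa was at the 24.5th percentile in muscle and the 67.7th in liver, and per3 at the 74.5th and 41.4th. Per1a was at the 70.0th percentile in muscle and the 44.6th in liver, and per2 at the 70.35th and 63.2nd.

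**Figure D3:**
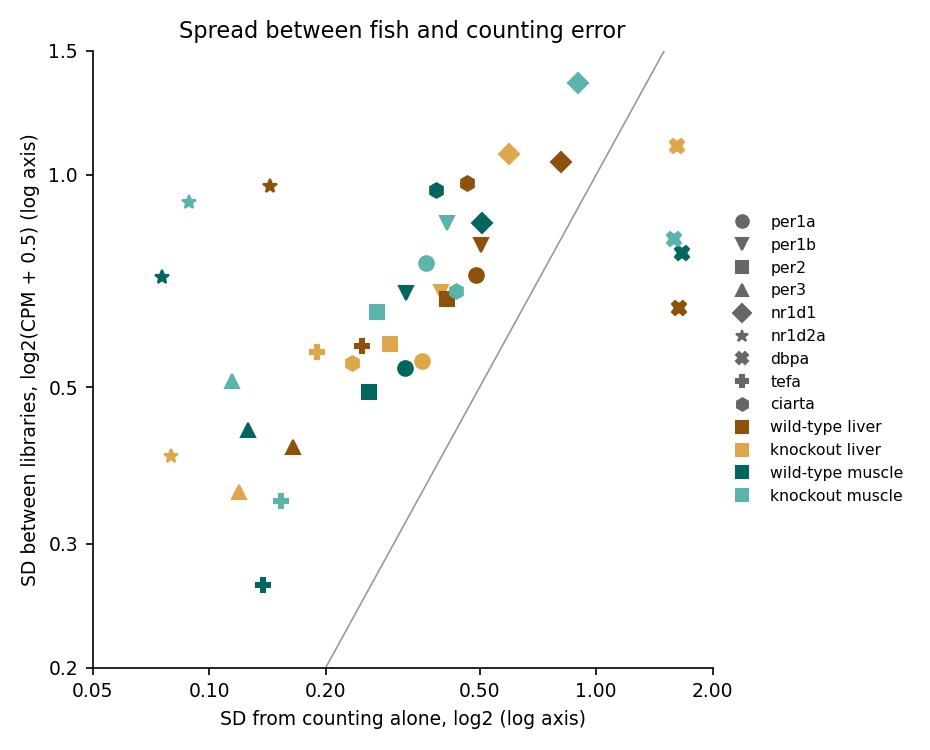
SD of log2(CPM + 0.5) between the 8 libraries of a group against the SD expected from counting alone, both on log axes, with 1 symbol per gene and 1 colour per group. The line marks equality: nr1d2a (stars) lies farthest above it, at 0.40 to 0.97 against 0.08 to 0.14. The 4 points of dbpa lie under it, where counts of 0 raise the counting SD.

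To see whether the genes varied together, each pair of members was correlated over the 8 libraries of a group. None of the 144 relations (36 pairs in each of 4 groups) passed after Benjamini-Hochberg adjustment by exact permutation, by r or by rho. By r, 10 had an unadjusted p under 0.05. They were 1 in wild-type liver, 2 in knockout liver, 3 in wild-type muscle and 4 in knockout muscle. Chance alone passes about 1 relation in 20 at that threshold. The share among pairs of other genes in the same libraries was not counted, so these 10 are not shown to be particular to clock genes. The median r over the 36 pairs was -0.05, 0.05, 0.12 and 0.20 in those groups.

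By r, the 3 pairs with the smallest p lay in muscle. They were nr1d1 with nr1d2a and per1b with ciarta in knockout, and nr1d1 with ciarta in wild type. By rho, the smallest p was that of a negative pair, per3 with ciarta in wild-type muscle (rho = -0.86, exact permutation p = 0.0107, adjusted 0.724, r = -0.56, n = 8). Per3 with nr1d1 had rho = -0.79 there (exact permutation p = 0.0279, n = 8). In knockout muscle these 2 pairs of per3 had rho of 0.31 and -0.21. Nr1d1 was thin in muscle, with 0 to 33 counts in knockout and 3 to 20 in wild type. Its counting SD was 0.90 and 0.51 there, against measured SDs of 1.35 and 0.85. Nr1d1 and nr1d2a had r = 0.94 and rho = 0.83 in knockout muscle (exact permutation p = 0.00213 and 0.0154, adjusted p of r = 0.232, n = 8), and r was 0.75 without the 2 libraries farthest from the median of nr1d1. In wild-type muscle the same pair had r = 0.77 and rho = 0.57 (exact permutation p = 0.0215 and 0.151, adjusted p of r = 0.411, n = 8). Nr1d1 and ciarta had r = 0.88 and rho = 0.83 in wild-type muscle (exact permutation p = 0.00322 and 0.0154, adjusted p of r = 0.232, n = 8), falling to r = 0.63 without the 2 farthest libraries. In knockout muscle that pair had r = 0.57 (exact permutation p = 0.134, n = 8).

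The period genes entered in knockout muscle. Per1b and ciarta had r = 0.86 and rho = 0.76 there (exact permutation p = 0.00774 and 0.0368, adjusted p of r = 0.371, n = 8), and r was 0.59 without the 2 farthest libraries. Per1a and per1b, which are paralogues, had r = 0.79 and rho = 0.76 (exact permutation p = 0.0224 and 0.0368, adjusted p of r = 0.411, n = 8), and r = 0.48 without the 2 farthest. Knockout muscle 6, which held raised hepatocyte markers, was the highest of its group for per1a, per1b and ciarta, at 13.2, 13.5 and 9.20 CPM. The r of these pairs without that library alone is not given.

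Nr1d2a and ciarta in wild-type muscle rested on few libraries. Their r of 0.84 and rho of 0.62 (exact permutation p = 0.0195 and 0.115, adjusted p of r = 0.411, n = 8) became r = 0.42 without the 2 farthest libraries. Per2 and nr1d2a had r = 0.73 and rho = 0.81 in knockout muscle (exact permutation p = 0.0400 and 0.0218, adjusted p of r = 0.576, n = 8), and r = 0.63 in wild-type muscle (exact permutation p = 0.0728, n = 8). In liver the pairs past an unadjusted p of r of 0.05 were all negative. The pair in wild type was tefa with ciarta (r = -0.78, and -0.96 without the 2 libraries farthest in tefa). Those in knockout were nr1d2a with per3 (r = -0.78, and -0.99 without the 2 farthest in per3) and with dbpa (r = -0.72, and -0.27 without the 2 farthest in nr1d2a). By the p of r, none of these pairs was past 0.05 unadjusted in both genotypes except nr1d1 with nr1d2a in muscle.

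**Figure D4:**
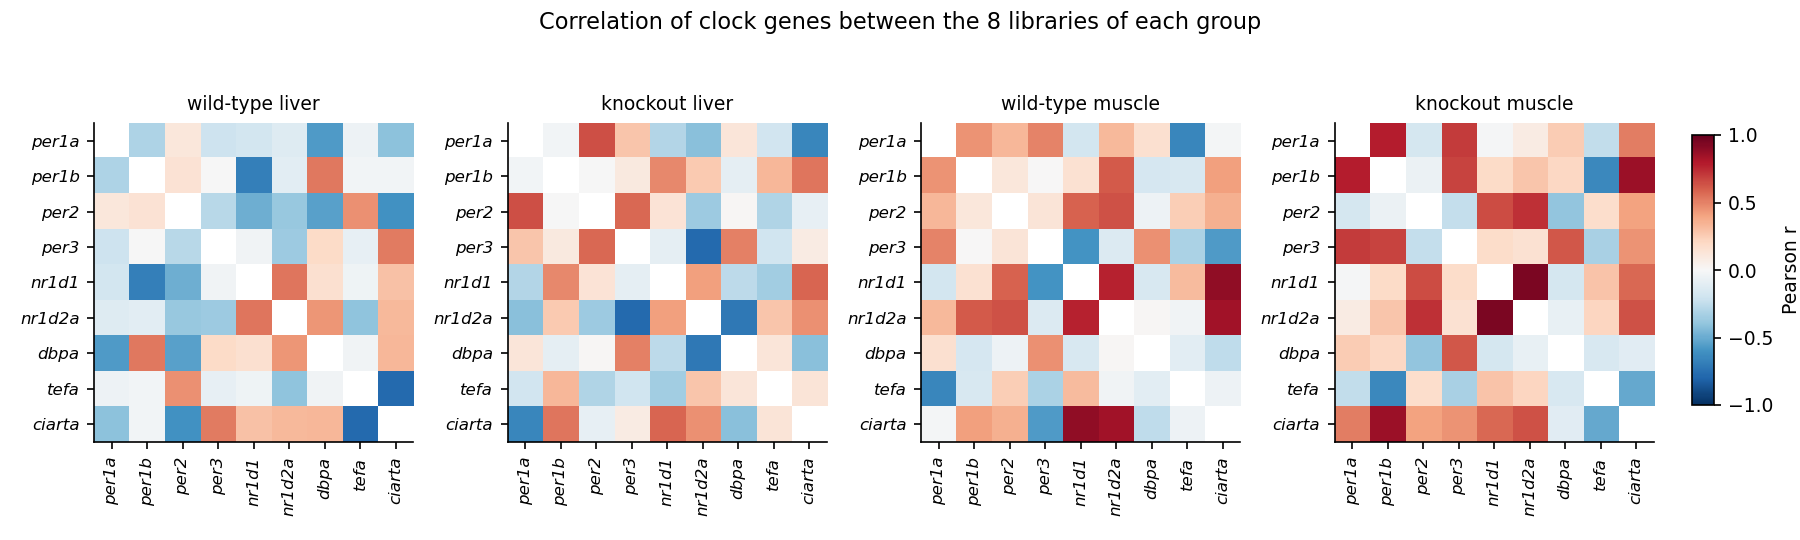
Pearson r of log2(CPM + 0.5) for each pair of clock genes over the 8 libraries of a group, from blue at -1 to red at 1, with the diagonal left blank. The block of nr1d1, nr1d2a and ciarta is red in wild-type muscle (0.77 to 0.88) and knockout muscle (0.57 to 0.94); no pair passed after adjustment, and several fall without the libraries numbered 8.

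Libraries that carry number 8 held the lowest nr1d2a of their group in all 4 groups, at 16.7 CPM in wild-type liver, 57.4 in knockout liver, 42.3 in wild-type muscle and 41.4 in knockout muscle. Nr1d1 and ciarta were each lowest in number 8 in 3 of 4 groups. For nr1d1 those lows were 1 count in wild-type liver, 3 in wild-type muscle and 0 in knockout muscle. Wild-type liver 3 also had 1 count and wild-type muscle 4 also had 3, so library size set those 2 orders. For ciarta the lows were 13 counts in knockout liver, 4 in wild-type muscle and 4 in knockout muscle. Prelid3b and nr4a1, which are outside the clock lists, were also lowest in number 8 in both muscle groups. They were picked as the genes nearest to nr1d2a over these same muscle libraries, so a shared lowest library there is favoured by the choice. The share of all genes that are lowest in number 8 was not counted. In liver, number 8 was lowest for prelid3b in wild type only and for nr4a1 in neither genotype. Per2 was lowest in number 8 in 0 of 4 groups and was highest there in both livers, at 14.4 and 11.95 CPM. By total count, number 8 ranked the 4th, 1st, 6th and 3rd from the shallowest in the 4 groups in the same order, and the part of depth was not tested. Without the libraries numbered 8, the r of nr1d1 and nr1d2a was 0.44 in wild-type muscle and 0.90 in knockout muscle, and that of nr1d2a and ciarta was 0.45 and 0.38. The r of nr1d1 and ciarta was then 0.75 in wild-type and 0.25 in knockout muscle, and that of per2 and nr1d2a was 0.75 and 0.89. Per1b with ciarta stood at 0.76 in knockout muscle. Per3 then had r = -0.71 with nr1d1 and -0.78 with ciarta in wild-type muscle, and -0.78 and -0.10 in knockout muscle.

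Between liver and muscle of the same number, nr1d2a had r = 0.63 and rho = 0.71 in knockout (exact permutation p = 0.0962 and 0.0576, adjusted over 18 relations 0.459 for r, n = 8), and r was 0.29 without the 2 farthest libraries. In wild type it was r = 0.58 with rho = 0.31 (exact permutation p = 0.135 and 0.462, n = 8). Without number 8 these r were 0.35 in knockout and -0.15 in wild type. Nr1d1 had r = 0.51 and 0.61 in wild type and knockout, and 0.29 and 0.56 without number 8. Per3 had r = -0.61 in wild type (exact permutation p = 0.0436, adjusted 0.459, n = 8) and -0.48 in knockout, and -0.60 and -0.09 without number 8. None of the 18 relations passed after adjustment.

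Between wild type and knockout of the same number, which the labels do not call pairs, the relation was chosen after the values had been seen. In muscle r was 0.84 for nr1d1, 0.82 for nr1d2a and 0.79 for per2, with rho of 0.74, 0.76 and 0.90 (exact permutation p of r = 0.0106, 0.0153 and 0.0150, n = 8). Adjusted over 18 relations, each had an exact permutation p of 0.0920. Without the 2 farthest libraries r was 0.88, 0.30 and 0.59. Without number 8 the r in muscle were 0.68, 0.66 and 0.81. In liver per2 had r = 0.71 and nr1d2a r = 0.66 (exact permutation p = 0.0495 and 0.0723, n = 8), and these were 0.45 and 0.37 without number 8.

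**Figure D5:**
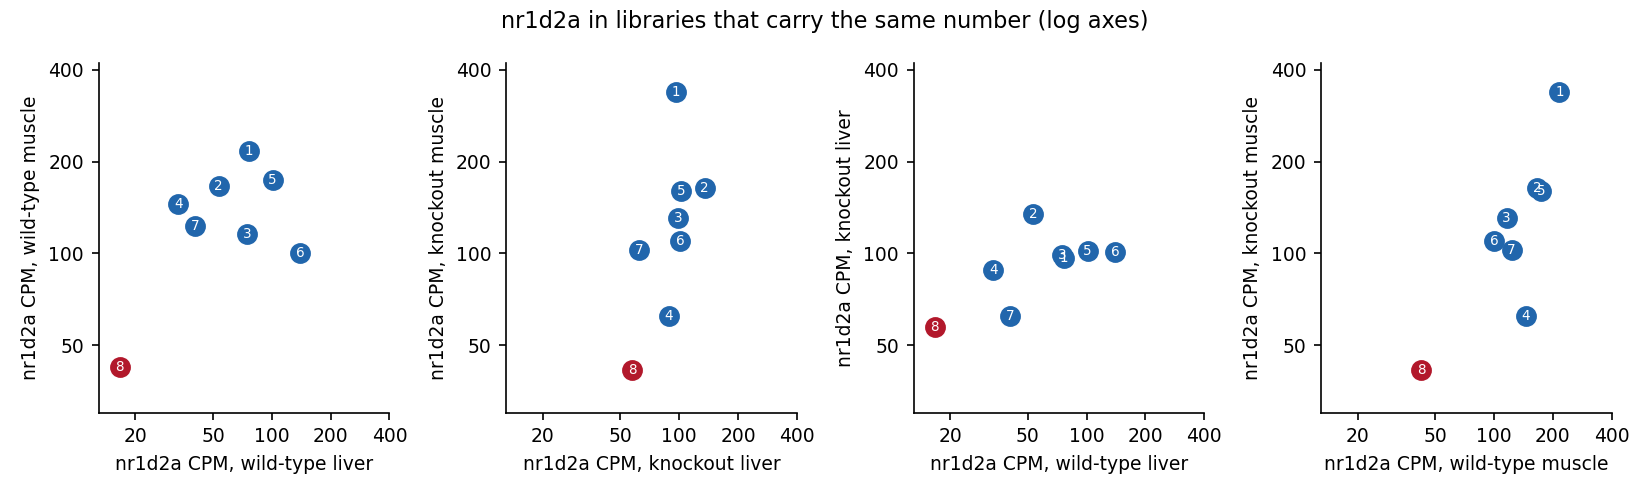
Level of nr1d2a in CPM scaled within tissue, on log axes, in libraries that share a number. Panels set liver against muscle in each genotype and wild type against knockout in each tissue. Each point is a number and number 8 is in red; it is the lowest on both axes of all 4 panels, and r was 0.58, 0.63, 0.66 and 0.82.

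The genes whose pattern was most like that of a member were looked up over the 16 libraries of a tissue after removal of the genotype means, among genes of at least 5 mean CPM. In muscle, the 3 nearest to nr1d2a of 10662 genes were prelid3b (r = 0.95), nr4a1 (r = 0.94) and bhlhe41 (r = 0.94). Nr4a1 is an orphan receptor of the immediate early class. Fkbp5, a gene induced by glucocorticoids, ranked 4 (r = 0.93), and sgk1 and tsc22d3, of the same glucocorticoid list, ranked 13 and 19. That list held 5 genes, and the places of the rest are not given here, so these ranks do not cover the list as a whole. In wild-type muscle prelid3b ran from 16.9 through 123 to 193 CPM and bhlhe41 from 4.06 through 29.1 to 41.8 CPM. The lowest library of prelid3b, nr4a1 and bhlhe41 was number 8 in both muscle groups, as for nr1d2a, which their choice by likeness to nr1d2a favours. Their r with nr1d2a without number 8 was not computed.

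Among the members, nr1d2a had per2 and ciarta in its nearest 100 in muscle, and ciarta had nr1d2a and per1b. The gene nearest to ciarta in muscle was jund (r = 0.87), and nr4a1 ranked 6 (r = 0.77). Per3 had none of the 6 other members in its nearest 100, and its nearest genes were FP565451.1, si:dkey-95h12.1 and zgc:158258 (r = 0.95, 0.95 and 0.94). By r, per3 in muscle had its strongest relation with the TMM scaling factor of the library (r = 0.75, rho = 0.78, permutation p = 0.00103 and 0.00160 within genotype, n = 16). Tefa had its strongest with the skeletal muscle markers (r = 0.75, rho = 0.73, permutation p = 0.000880 and 0.00259 within genotype, n = 16). Adjusted over 180 relations both were at 0.0927, and without the 2 farthest libraries r was 0.77 and 0.70. By rho, per3 stood higher with the intestine marker sum (r = 0.68, rho = 0.79, permutation p = 0.0173 and 0.000740 within genotype, n = 16, adjusted 0.346 for r). Without the 2 farthest libraries that r was 0.89. The part of these measures in the variation was not tested. For nr1d2a in muscle the r with the library total was -0.03.

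In liver, none of the 7 tested members had another member in its nearest 100. The nearest to nr1d2a there were smndc1 (r = 0.90), chac1 (r = 0.84) and fkbp5 (r = 0.84). Fkbp5 was thus near nr1d2a in both tissues, and the places of the other glucocorticoid genes in liver are not given here. With scaling within a tissue, the range of fkbp5 was 25.7 to 244 CPM in wild-type liver and 66.0 to 234 in knockout liver. In muscle it was 37.5 to 172 CPM in wild type and 44.0 to 365 in knockout. Its lowest library was number 8 in both liver groups and in wild-type muscle, and number 4 in knockout muscle. The 5 genes of the glucocorticoid list all had positive log2 changes in knockout against wild-type liver and none passed, with tsc22d3 nearest to the threshold at 44.1 ± 17.8 CPM in wild type and 102 ± 49.4 in knockout (log2 1.21 ± 0.31, edgeR adjusted p = 0.0859). Marker lists went both ways in the same comparison, with none called. Changes were positive for 6 of 6 tested hepatocyte genes (median log2 0.44), 6 of 6 exocrine pancreas (0.91), 5 of 5 erythrocyte (0.75) and 3 of 3 macrophage genes (0.54), beside 0.61 for the glucocorticoid list. Signs were mixed for skeletal muscle (2 positive and 4 negative, median -0.048), ovary (1 and 2, -0.085), intestine (1 and 2, -0.27) and skin genes (2 and 1, 0.14). The part of these cell types in the glucocorticoid list was not tested. Against the erythrocyte marker sum in liver, nr1d2a had r = 0.70 and rho = 0.70 (permutation p = 0.0105 and 0.00766 within genotype, n = 16, adjusted over 180 relations 0.270). Per3 had r = -0.69 and rho = -0.72 against the same sum (permutation p = 0.00529 and 0.00418 within genotype, n = 16, adjusted 0.159). Without the 2 farthest libraries r was 0.64 and -0.67, none of the 180 relations passed after adjustment, and the part of blood in these levels was not tested.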

How the data were processed

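The values deposited by the authors are raw counts, whole numbers for each library and gene symbol. Per the submitters' processing notes, Salmon 1.10.2, BWA 0.7.17-r1188 and fastp 0.23.4 were used with the build GRCz11, in roles that are not stated. Per the labels' protocols, libraries were made by Lasy-Seq, which reads the 3′ end of polyadenylated RNA, so a count does not depend on transcript length in the usual way, and reads with no stated molecular identifier mean that counting errors cover counting alone. Strand use in counting is not stated. Whether reads were shared between paralogues such as per1a and per1b was not examined.

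Groups came from the sample titles. Genotypes were compared within each tissue and tissues within each genotype with edgeR 4.0.16 (quasi-likelihood, robust, TMM, R 4.3.3), after filterByExpr at 10 counts a library and 15 in total, fitted over all genes, with Benjamini-Hochberg adjusted p under 0.05 as a call and the SE taken from the F statistic. Nr1d1 and dbpa were compared with exact permutation tests of log2(CPM + 0.5). Relations used Pearson's r and Spearman's rho, with exact permutation of 8 libraries or 100000 resamples. The p-values take each library as an independent unit. Liver and muscle libraries that may share a fish were not paired in the main tests. Alternatives with DESeq2 1.42.0, limma 3.58.1, other scalings, filters and left-out libraries were run.

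The members and lists were chosen with earlier results of these data known. The 9 members are always named. The rule also allowed up to 4 called genes a list and comparison from other lists, and the 3 genes most like a member in each tissue. Not all of these are given. The 3 nearest genes are given for nr1d2a in both tissues and for per3 in muscle, and for ciarta in muscle the nearest alone. Tissue calls of the light-induced repair, glucocorticoid and immediate early lists are not described. Clockb and rorcb between genotypes, fkbp5, sgk1 and tsc22d3, and nr4a1 beside ciarta, were named outside this rule after their values were seen. Sequences of the genes were not used here.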

Additional observations from a re-analysis of the deposited data

Results flagged for a closer look

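Within the 36 sets of 8 libraries (9 genes in 4 groups), 4 held a library far from the others by Dixon's ratio at its 95% critical value, where chance alone flags about 1 set in 20. Wild-type muscle 7 was low for per3, at 23.7 CPM (44 counts, ratio 0.733). Wild-type muscle 8 was low for nr1d2a, at 42.3 CPM (177 counts, ratio 0.529). Knockout liver 7 was high for dbpa, at 4.04 CPM, which rests on 13 counts (ratio 0.696). Knockout liver 5 was high for ciarta, at 23.7 CPM (96 counts, ratio 0.532), and without it the difference of ciarta between liver and muscle in knockout fish was 1.49 on the log2 scale.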

How the results depend on the processing

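Of 1062 values of the 36 member results under an alternative, 976 kept their direction and their side of the threshold. Another 18 passed where the value in the report had not, 0 were lost and 68 changed sign. None of the sign changes involved a call. Between tissues of a genotype, leaving out both muscle libraries 6 repeats the omission of its muscle library 6, and both are counted here. Library totals in place of TMM moved the median log2 change of all genes to -0.53 between genotypes in liver, -1.02 between tissues in knockout and -0.69 for the difference of genotype effects. On totals, the number of members called was then 3 in liver between genotypes (per1b, per3 and tefa, all lower in knockout), where 3155 of 9438 genes were called, 3138 of them lower. It was 1 between tissues in wild type (tefa; 3578 of 10648 genes), 7 between tissues in knockout (ciarta higher and 6 lower in liver; 8989 of 11685 genes) and 1 for the difference (per3; 3324 of 13725 genes). There, per3 in knockout liver was at -0.80 beside the median of -0.53. Between tissues in wild type, limma-voom, no filter, and at least 50 counts in 8 libraries also called 1 member each (tefa). Of all genes they called 3750 of 10648, 4837 of 29220 and 1875 of 3958. Omission of single libraries gave from 0 to 1, with 1 without wild-type liver 5 or 8. Between tissues in knockout, limma-voom called 2 (ciarta and per3), and the filter of 50 counts called 0, since ciarta was then not tested. The replicate block called 1 member between tissues in wild type (nr1d2a, -0.69, edgeR adjusted p = 0.0475), where 3358 of 10648 genes were called, and changed no other call. Numbers were to be taken as pairs where the deviations of every same-numbered pair from the group means correlated over 0.1. That held for 0 of 8 wild-type and 2 of 8 knockout pairs of liver and muscle, and for 3 of 8 liver and 6 of 8 muscle pairs of wild type and knockout. In muscle the median was 0.167, against -0.0071 between other numbers, and 5 of 8 libraries correlated best with their own number, a hint from the data of structure shared by number that the labels do not explain.

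Signs turned as follows, on the log2 scale, and the cause was not tested. Knockout against wild type in muscle, library totals gave 0.0895 for per1a and 0.078 for per1b, limma-voom gave 0.124 for per1b, -0.104 for per2, -0.0707 for nr1d2a and 0.267 for ciarta, cyclic loess gave -0.0020 for per2 and -0.0534 for nr1d2a, the replicate block gave -0.0735 for nr1d2a, and leaving out both muscle libraries 6 gave -0.0598 for per2. Liver against muscle in wild type, per1b was -0.0317 on totals and -0.0199 with no filter. In knockout, per1b was 0.030 with cyclic loess and 0.195 without knockout muscle 6, and nr1d2a was 0.0598 with DESeq2, 0.0601 with its size factors, 0.137 with limma-voom, 0.0732 with no filter, 0.166 with the replicate block, 0.0115 when thinned to the shallowest library, 0.0775 without vitellogenin genes, 0.295 with cyclic loess and 0.0525 without knockout muscle 6. For the difference of genotype effects, leaving out both muscle libraries 6 gave 0.0384 for per1a and 0.0468 for per1b, limma-voom and no filter gave 0.0548 and 0.0243 for per2, and totals gave -0.122 for nr1d2a and -0.652 for tefa. Leaving out each library in turn, values ran from -0.316 to 0.0477 for per2 in liver, and in muscle from -0.216 to 0.177 for per1a, -0.342 to 0.0971 for per1b, -0.128 to 0.152 for per2 and -0.292 to 0.176 for nr1d2a. Between tissues they ran from -0.410 to 0.0476 for per1a and -0.065 to 0.291 for per1b in wild type, and from -0.398 to 0.195 for per1b and -0.105 to 0.295 for nr1d2a in knockout. For the difference they ran from -0.385 to 0.123 for per1a and -0.244 to 0.188 for per2. The counts of related pairs, of members related between tissues and of members under the filter that differed were 0 in each alternative. Cyclic loess and the settings without both muscle libraries 6 or all libraries numbered 8 were chosen after seeing the data. Counts of 0 to 13 for dbpa limit what can be said of it.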
